A study of Mus musculus with 27 samples.

Results

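Zfp genes are the mouse genes named Zfp and a number, which encode zinc finger proteins. They were taken here as every gene with such a name to which the authors had assigned at least 1 window, a stretch of open chromatin in which H3K27ac, the histone acetylation of active promoters and enhancers, was measured. This gave 306 of 16038 genes, with 1008 of 70300 windows. The libraries were ChIP-seq of Kupffer cells, which are macrophages that reside in the liver. They were sorted as F4/80-high and Tim4-positive from C57BL/6J mice on a NASH diet, which models a fatty and inflamed liver (non-alcoholic steatohepatitis), or on a control diet. H3K27ac had 2 libraries per diet, and the nuclear receptor LXR, the stress-induced factor ATF3 and the acetyltransferase P300 had 1 list of reproducible sites per diet, each joined by the authors from 2 libraries. All groups shared the strain and the sort, and the protocol given for H3K27ac adds flavopiridol, an inhibitor of transcription, while the liver is digested. No label says that the libraries of a diet came from separate mice, so p-values measure the spread between libraries, which may be technical.

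Most proteins of this group carry C2H2 zinc fingers, each of which folds around a zinc ion and reads a short run of DNA bases. In many of them the fingers are joined to a KRAB domain, which recruits the co-repressor encoded by Trim28 and, with it, enzymes that silence retroelements. Such genes arose by repeated duplication and lie side by side in clusters. A few members work differently, among them Zfp36, which encodes tristetraprolin, a protein that binds AU-rich messenger RNAs such as that of tumour necrosis factor and speeds their decay.

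The sequences below hold a cAMP response element (CRE), or letters close to it, and are shown because many of these promoters had an ATF3 site on the NASH list. The CRE is the site bound by proteins of the CREB and ATF families. The CRE was searched as TGACGTCA, which reads the same on both strands, in each RefSeq promoter (GRCm38.p6), taken from 250 bases before the start site to 50 after it. It was found in 13 of 309 promoters of Zfp genes (4.21%), those of 11 genes, against 1.79% of all 32851 promoters. Windows overlapped 85.8% of Zfp promoters but 35.4% of other promoters, and among those with a window the CRE stood in 4.91% of 265 Zfp promoters and 3.55% of 11508 others. Shown are stretches of 70 bases, 5′ to 3′ and upstream of the start site, for 3 of the CRE promoters that hold no other shared stretch. Capitals mark the CRE.
Zfp426 (chr9:20492747-20492816, minus strand): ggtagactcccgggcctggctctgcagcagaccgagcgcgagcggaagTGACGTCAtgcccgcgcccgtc
Zfp335 (chr2:164911782-164911851, minus strand): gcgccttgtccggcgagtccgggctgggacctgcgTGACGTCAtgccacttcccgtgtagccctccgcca
Zfp868 (chr8:69625176-69625245, minus strand): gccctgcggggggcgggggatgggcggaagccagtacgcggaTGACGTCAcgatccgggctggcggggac

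On chromosome 13 a second set of Zfp promoters shared more than the CRE. In 4 of them a stretch of 17 bases stood exactly 10 bases before the CRE. In 3 other Zfp promoters of that chromosome the same stretch was followed, at the same spacing, by 8 bases that matched 7 of the 8 letters of the CRE. Capitals mark the shared stretch and then the CRE or the letters in its place.
Zfp457 (chr13:67306434-67306503, minus strand): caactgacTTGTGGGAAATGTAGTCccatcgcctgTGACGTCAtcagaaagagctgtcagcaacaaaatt
Zfp953 (chr13:67360590-67360659, minus strand): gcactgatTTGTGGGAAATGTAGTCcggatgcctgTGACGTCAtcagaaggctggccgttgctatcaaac
Zfp72 (chr13:74390830-74390899, minus strand): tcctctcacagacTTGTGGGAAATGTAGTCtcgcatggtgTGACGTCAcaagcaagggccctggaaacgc
Zfp595 (chr13:67332561-67332630, minus strand): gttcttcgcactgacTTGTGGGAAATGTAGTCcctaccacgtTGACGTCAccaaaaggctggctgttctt
Zfp458 (chr13:67269115-67269184, minus strand): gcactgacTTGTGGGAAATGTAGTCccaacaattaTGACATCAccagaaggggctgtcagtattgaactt
Zfp712 (chr13:67061171-67061240, minus strand): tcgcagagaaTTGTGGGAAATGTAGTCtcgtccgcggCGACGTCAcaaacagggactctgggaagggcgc
Zfp759 (chr13:67128158-67128227, plus strand): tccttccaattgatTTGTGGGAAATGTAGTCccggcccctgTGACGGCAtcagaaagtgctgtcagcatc

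ATF3 sites lay over the CRE promoters of Zfp genes in most cases. Of the 13 promoters, 11 held a site on the NASH list and 5 on the control list, and 6 held one on the NASH list alone (46.2%). Among promoters overlapped by a window of the table, which all 13 were, the share with an ATF3 site on the NASH list was 84.6%, against 62.5% of 408 CRE promoters of other genes. Without a CRE it was 32.1% of 252 promoters of Zfp genes and 37.6% of 11100 promoters of other genes. On the control list these shares were 38.5% and 29.7% with a CRE, and 22.2% and 22.1% without. The 3 start sites of Zfp473 share sequence, and genes of a cluster share ancestry, so these promoters are not independent of each other. The CRE was chosen from several motifs after their counts were known, and the shares are given as a description.

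The shared stretch of chromosome 13 was found after the sequences had been seen. It occurred in 8 of 309 promoters of Zfp genes (2.59%), 7 of them on chromosome 13, and in 8 of 32542 other promoters (0.0246%), counted on both strands. Of the 7 promoters on chromosome 13, 6 held an ATF3 site on the NASH list and none did on the control list. The eighth Zfp promoter with the stretch, that of Zfp2 on chromosome 11, held none on either list. Of the 8 promoters of other genes, 6 held a site on the NASH list and 4 on the control list, so 2 of the 8 were on the NASH list alone. The 4 of these genes on chromosome 13 had 3 on the NASH list and 1 on the control list. The full CRE 10 bases after the stretch was not limited to Zfp genes. Among these 4 it stood in 1 promoter with ATF3 sites on both lists and in another with a site on the NASH list alone. Where the stretch lay on the other strand, this spacing was not searched. Of the 25 promoters of Zfp genes on that chromosome without the stretch, 6 held a site on the NASH list and 1 on the control list. A window overlapped all 7 promoters with the stretch but 20 of these 25. Among the 20 the ATF3 shares were 30% on the NASH list and 5% on the control list. LXR sites did not follow this split by diet, with 6 of the 7 promoters on each list, while P300 sites lay over 6 on the NASH list and 1 on the control list. The 25 promoters without the stretch were also split for P300, with 13 on the NASH list and 4 on the control list. These were 65% and 20% of the 20 with a window. The ATF3 scores of reproducibility (IDR), the authors' own, reached the highest value of 1000 at Zfp457 and Zfp458 and were 872 at Zfp759, 770 at Zfp953, 637 at Zfp712 and 573 at Zfp72. H3K27ac in the windows over these promoters did not differ between the diets by the test below. Zfp953 had 33.1 and 26.5 normalised tags (the authors' scaling to 10000000 tags a library) in NASH libraries, against 33.8 and 42.0 in control libraries (limma adjusted p = 0.508). Zfp457 had 4.80 and 7.28 in NASH libraries, against 11.6 and 8.84 in control libraries (limma adjusted p = 0.409).

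**Figure D1:**
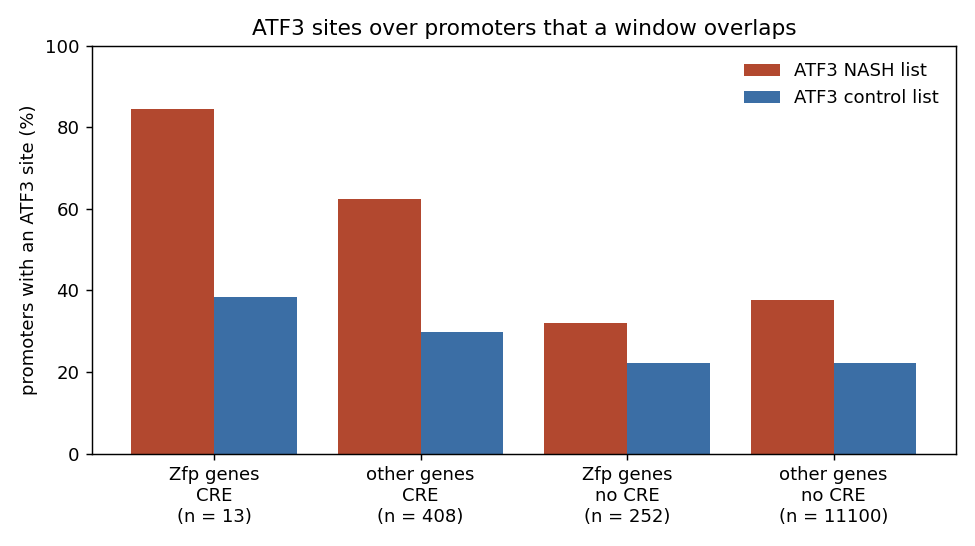
Share of promoters (%) with an ATF3 site on the NASH list (left bar) or the control list (right bar), for Zfp genes and other genes with or without a CRE, among promoters that a window of the table overlaps. With a CRE, 84.6% of 13 Zfp promoters and 62.5% of 408 other promoters held a site on the NASH list, and without it 32.1% and 37.6%.

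Other motifs were counted in the same promoters, and several shares turned once promoters without a window were left out, a comparison added after the data were seen. The ETS motif CCGGAAG stood in 21.04% of Zfp promoters and 8.86% of all, and among promoters with a window in 23.02% of Zfp promoters and 19.73% of others. The core letters ACTACAA of the element of ZNF143, a factor of housekeeping promoters, stood in 5.83% of Zfp promoters and 3.24% of all, and with a window in 6.79% and 4.37% of others. The GC box of SP and KLF factors (GGGCGG) stood in 46.3% of Zfp promoters and 35.7% of all, but with a window in 48.7% of Zfp promoters and 67.3% of others. The YY1 motif GATGGCG turned likewise, with 5.50% of Zfp promoters and 3.49% of all, but 6.04% and 7.01% of others with a window. So did the E-box CACGTG, with 7.44% and 7.15%, but 7.17% and 10.97% of others with a window. The AP-1 site (TGACTCA or TGAGTCA), which ATF3 can bind together with JUN proteins, was less frequent in Zfp promoters both ways, with 2.91% and 5.20% of all, and 2.64% and 3.66% of others with a window. A direct repeat of AGGTCA spaced by 4 bases, the site of LXR with its partner RXR, was in 0 of the Zfp promoters and 0.0152% of all. Only this exact repeat was searched, and just 5 promoters of all held it. The count of 0 therefore cannot tell whether Zfp promoters lack LXR elements. All motifs were counted on both strands. The letters of the CRE, GC box, ETS motif, YY1 motif and E-box each contain CpG, and the ratio of observed to expected CpG had a median of 0.656 in Zfp promoters and 0.384 in all, with a GC content of 55.3% and 52.7%. These medians were taken over promoters with and without a window together.

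Windows of Zfp genes lay near start sites more often than those of other genes. Of the 1008 windows, 35.1% were annotated as promoters (21.05% of all windows) and 26.3% as introns (40.5%), and 47.6% lay within 1000 bp of a start site (29.5%). A Zfp gene had a median of 2 windows, against 3 for all genes, and 104 had 1 window. Summed over its windows, a Zfp gene had a median of 15.5 normalised tags (all genes 17.9), with a range of 0.485 to 805. The 10 highest genes held 26.1% of the signal of the group. On chromosome 7 lay 85 of the genes, on chromosome 17 another 39 and on chromosome 13 another 30, together 50.3%.

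The factors were then compared by how many Zfp genes had a site in any of their windows, for each diet. LXR had a site at 245 genes on the NASH list and 245 on the control list (80.1% each), against 78.7% and 77.8% of all genes. ATF3 had a site at 182 genes on the NASH list (59.5%, against 63.6% of all genes) and at 101 on the control list (33.0%, against 43.7%). P300 had a site at 236 genes on the NASH list (77.1%, against 79.4%) and at 144 on the control list (47.1%, against 57.8%). Genes with a site on the NASH list and none on the control list made up 30.4% of Zfp genes for ATF3 (93 genes; 23.7% of all genes) and 31.4% for P300 (96 genes; 22.99%), but 5.88% for LXR (6.37%). The NASH lists were longer, with 51709, 38828 and 52628 sites for LXR, ATF3 and P300, against 44463, 16109 and 25219 on the control lists. Counted only in windows within 1000 bp of a start site, the order between Zfp genes and all genes turned for ATF3 and P300. These shares count a gene without such a window as a gene without a site. ATF3 then had a site at 40.5% of Zfp genes and 31.2% of all on the NASH list, and at 23.2% and 18.6% on the control list. P300 had 68.6% and 55.96% on the NASH list and 41.2% and 38.99% on the control list, and LXR 69.6% and 52.9%, and 71.2% and 53.8%. Among promoters overlapped by a window, ATF3 sites lay over 34.7% of Zfp promoters and 38.5% of others on the NASH list. On the control list these shares were 23% and 22.4%. P300 then had 72.1% and 75.5% on the NASH list and 42.6% and 52.5% on the control list, and LXR 73.6% and 70%, and 71.7% and 71.8%. The part of list length in these shares was not tested, and with 1 list per diet no spread is known.

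**Figure D2:**
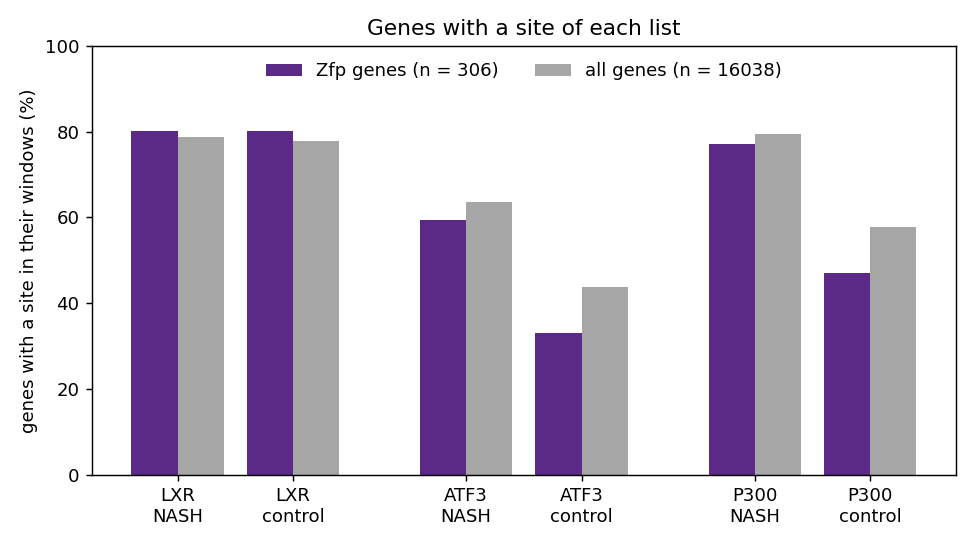
Share of Zfp genes and of all genes in the table (%) with a site in their windows, for the NASH and control list of each factor. The LXR bars are alike between diets, while ATF3 and P300 stand lower on the control lists, for Zfp genes at 33.0% and 47.1%.

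Genes with another member within 100000 bp had fewer sites than those that lay alone, a split chosen after values had been seen. The 172 clustered genes had an ATF3 site in 50.6% of cases on the NASH list and in 23.8% on the control list, and the 134 lone genes in 70.9% and 44.8%. P300 sites were found at 73.3% and 40.1% of clustered genes, and at 82.1% and 56.0% of lone genes. Clustered genes also had less signal and fewer windows in which a site could fall, with medians of 13.6 against 23.6 normalised tags and 2 against 3 windows. On chromosome 13, 73.3% of 30 Zfp genes had an ATF3 site on the NASH list and 16.7% on the control list. All 3 factors had a site in both diets at 70 Zfp genes (22.9%, against 34.6% of all genes), the highest in signal being Zfp36, Zfp608, Zfp335, Zfp541, Zfp217 and Zfp263. All 3 had a site in the NASH lists and none in the control lists at 6 genes (1.96%, against 1.93%), which were Zfp748, Zfp677, Zfp593, Zfp503, Zfp536 and Zfp462.

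H3K27ac itself was compared between the diets with limma on log2(value + 1), fitted over all genes that passed a filter on low values. The filter kept 238 of the 306 Zfp genes (77.8%, against 72.3% of all), and the other 68 were not tested. The median of all tested genes lay at −0.29 on the log2 scale, so each log2 change below is given relative to it, while the adjusted p-values test the change before that subtraction. At an adjusted p under 0.05, 2 Zfp genes were higher with the NASH diet (0.840%, against 2.89% of all tested genes) and 29 were lower (12.2%, against 11%). With TMM scaling, which sets the median near 0, 9 were higher (3.78%, against 6.97%) and 17 lower (7.14%, against 6.37%). The share of Zfp genes called lower was thus near that of all genes in either scaling. Both NASH libraries lay above both control libraries at 24 of the tested Zfp genes (10.1%, against 12%) and below them at 109 (45.8%, against 46%). The median change of tested Zfp genes was −0.08, with the middle 50% of them between −0.38 and 0.19. All 17 genes lower with TMM were among the 29. The fits without 1 library have no share over all genes beside them. Their counts therefore do not show whether Zfp genes vary more than others. The count of lower genes was 19 without NASH library 1, 7 without NASH library 2, 11 without control library 1 and 45 without control library 2, and 5 genes were lower in each of these fits. The count of higher genes was 0 without NASH library 1, 1 without NASH library 2, 2 without control library 1 and 1 without control library 2, and no gene was higher in each of these fits.

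**Figure D3:**
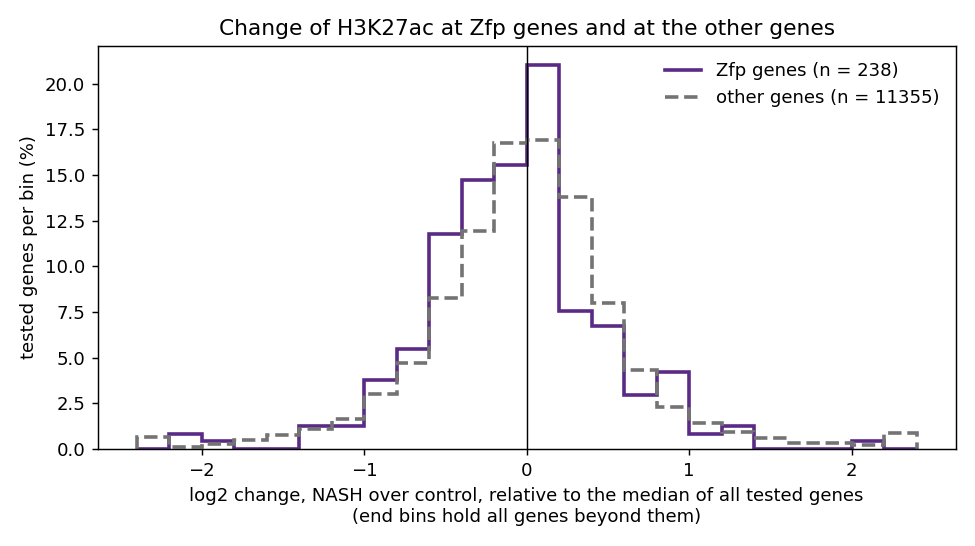
Distribution of the log2 change of H3K27ac (NASH over control, relative to the median of all tested genes) for 238 Zfp genes (solid) and 11355 other genes (dashed), in percent of tested genes per bin of 0.2. The end bins hold all genes beyond them, and the Zfp genes have their median at −0.08.

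Of the genes whose proteins act on RNA, Zfp36 had the highest H3K27ac of all Zfp genes and more of it with the NASH diet. It had 927 and 853 normalised tags in NASH libraries, against 725 and 716 in control libraries. The groups did not overlap, and the change was 0.59 (SE 0.10, limma adjusted p = 0.0469). The call held with TMM (0.0103) and ended without NASH library 1, control library 1 or control library 2 (adjusted p = 0.108 to 0.169). Its 12 windows lay within 5 kb of the start site, and 1 of them was called higher. The window called higher stood at −2906 bp (chr7:28382007-28382262), with 67.2 and 74.4 normalised tags in NASH libraries, against 35.9 and 26.5 in control libraries (1.43, SE 0.26, limma adjusted p = 0.0115). This window call ended without NASH library 2 (adjusted p = 0.117), and without control library 2, where the log2 change before subtraction fell under 1. LXR and P300 had a site there on both lists and ATF3 on the control list. At −43 bp and at −1950 bp all 3 factors had sites on both lists, and the enrichment scores of the P300 sites at −43 bp were higher than those of 99.4% of the sites on the NASH list and 99.8% on the control list. The promoter of Zfp36, 250 bases upstream of the start site (chr7:28379229-28379478, minus strand), is shown because the window at −43 bp overlaps it, with an ETS motif and a GC box in capitals.
Zfp36: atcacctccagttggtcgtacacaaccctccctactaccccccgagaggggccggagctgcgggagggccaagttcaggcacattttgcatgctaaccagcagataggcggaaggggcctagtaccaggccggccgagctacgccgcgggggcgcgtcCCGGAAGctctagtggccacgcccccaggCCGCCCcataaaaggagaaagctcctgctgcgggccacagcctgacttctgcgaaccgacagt

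The other 5 genes of the RNA list did not pass the test. They were Zfp106, which encodes an RNA-binding protein needed by motor neurons, the ribosome quality control gene Zfp598, Zfp622, Zfp326 and Zfp346, with changes between −0.59 and 0.74. Zfp598 had 3.73 and 5.20 normalised tags in NASH libraries, against 13.7 and 5.74 in control libraries (limma adjusted p = 0.286). The second gene called higher was Zfp664, at a low level of 5.87 and 6.24 normalised tags in NASH libraries, against 1.06 and 0.88 in control libraries. These were 11 and 12 tags with the NASH diet, against 1 and 2 tags with the control diet, a ratio of 6.48 (95% exact interval 1.96 to 33.7 from counting error alone). The limma adjusted p of 0.0499 rose to between 0.147 and 0.326 without NASH library 1, control library 1 or control library 2. Without NASH library 2 the gene did not pass the filter.

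**Figure D4:**
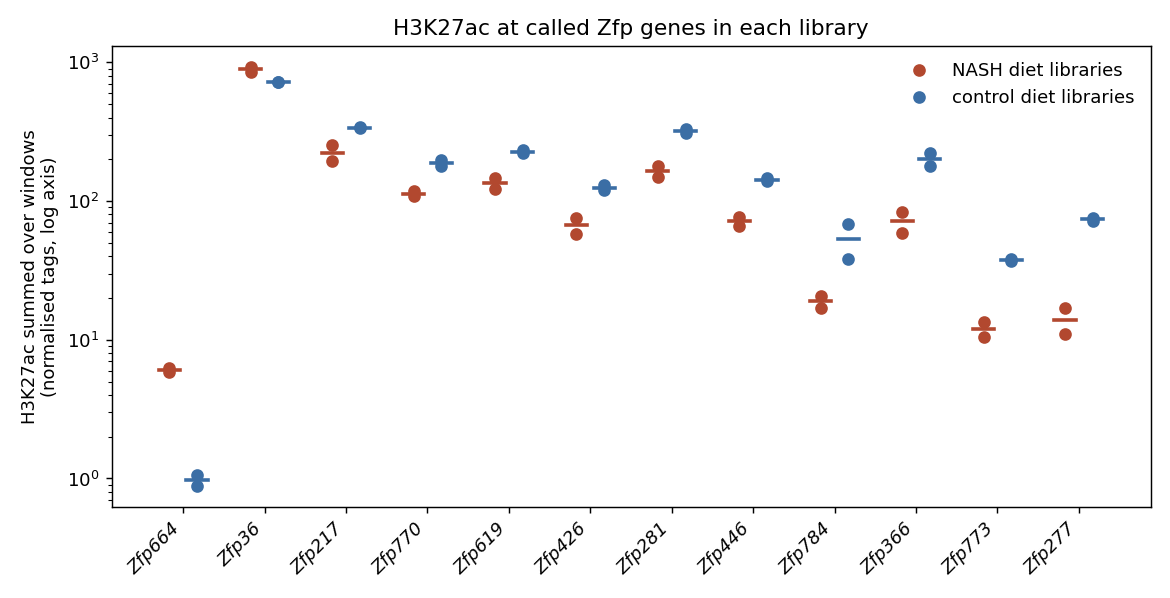
H3K27ac summed over the windows of 12 called Zfp genes (normalised tags, log axis), with 1 point per library, a bar at the mean, and NASH libraries left of control libraries. Genes run left to right from the highest relative change (Zfp664) to the lowest (Zfp277, with 17.1 and 10.9 in NASH libraries and 76.0 and 72.1 in control libraries). The 12 were chosen by the test on these same values, so the gaps between their groups are no further evidence.

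Zfp277, whose human counterpart is known as a partner of the Polycomb protein BMI1, had the lowest adjusted p of all Zfp genes. It had 17.1 and 10.9 normalised tags in NASH libraries, against 76.0 and 72.1 in control libraries. The change was −2.07 (SE 0.31, limma adjusted p = 3.92e-05), and it was called in each fit that left out a library. All 5 windows assigned to it were intronic, and the 3 called lower lay side by side at 14 to 15 kb from the start site. A window also overlapped its promoter, but it was not among those assigned to Zfp277 and is not part of these values. The window at 15034 bp (chr12:40430656-40430857) had 0 and 2.60 normalised tags in NASH libraries, where 0 allows up to 1.60, against 30.6 and 22.99 in control libraries. Its tags gave a ratio of 0.0521 (95% exact interval 0.0165 to 0.127) and a limma adjusted p of 9.75e-04. LXR sites lay over it on both lists and a P300 site on the NASH list.

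Zfp366, which encodes DC-SCRIPT, a cofactor of nuclear receptors known from dendritic cells, was lower in intronic windows within 6 kb of its start site. It had 83.7 and 58.8 normalised tags in NASH libraries, against 223 and 179 in control libraries (−1.21, SE 0.21, limma adjusted p = 5.5e-05), and held in each fit that left out a library. The 2 windows with the smallest adjusted p lay at 1520 bp (chr13:99186243-99186443) and 5890 bp (chr13:99190613-99190813). The first had 10.1 and 7.80 normalised tags in NASH libraries, against 43.3 and 45.1 in control libraries (limma adjusted p = 9.75e-04). The second had 9.07 and 3.12 in NASH libraries, against 42.2 and 28.7 in control libraries (limma adjusted p = 0.00265). The promoter window at −93 bp had 6.93 and 9.88 in NASH libraries, against 20.1 and 23.9 in control libraries (limma adjusted p = 0.0503). Beyond 11 kb the windows at 11605, 12260 and 20107 bp were tested and not called, and the others were too low to be tested. In a fit that called 11% of all tested genes lower, 2 of 3 dendritic cell genes were tested. Of these Zbtb46 was lower (limma adjusted p = 0.0451, and 0.0906 with TMM), and Xcr1 was not called (limma adjusted p = 0.0944). The summed level of the 3 dendritic cell genes was 54.9 and 51.0 normalised tags in NASH libraries, against 98.2 and 82.7 in control libraries. Flt3 stood near 0 with 1.60 and 0.52 in NASH libraries, against 1.06 and 0 in control libraries. The part of dendritic cell genes in the result was not tested.

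Among genes of promoter and general transcription factors, 2 of 6 were lower and none higher (with TMM 1 lower), in a fit that called 11% of all tested genes lower and 2.89% higher (6.37% lower with TMM). Zfp281, a factor that binds GC-rich promoters and is known from stem cells, had 179 and 148 normalised tags in NASH libraries, against 310 and 333 in control libraries. This change of −0.69 (SE 0.15, limma adjusted p = 2.13e-04) held in each fit that left out a library. The 5 windows called lower were the promoter window and 4 that lay between −12830 and −55487 bp. At the promoter, −40 bp, the values were 11.7 and 6.76 normalised tags in NASH libraries, against 33.8 and 22.6 in control libraries (−1.27, limma adjusted p = 0.0236). That window had an LXR site on the NASH list, P300 sites on both lists and no ATF3 site. The 250 bases upstream of its start site (chr1:136624651-136624900, plus strand) are shown because the mark was lower there, with 4 GC boxes in capitals.
Zfp281: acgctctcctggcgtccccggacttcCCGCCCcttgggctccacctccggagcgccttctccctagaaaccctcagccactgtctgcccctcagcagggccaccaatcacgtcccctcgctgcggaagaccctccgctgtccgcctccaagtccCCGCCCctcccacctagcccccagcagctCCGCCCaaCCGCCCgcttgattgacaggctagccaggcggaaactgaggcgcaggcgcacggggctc

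Zfp384 had 61.9 and 39.0 normalised tags in NASH libraries, against 93.0 and 76.9 in control libraries (limma adjusted p = 0.0473, and 0.136 with TMM), a call that ended without NASH library 2 or control library 1. The others of that list, Zfp143, the Chd4 activator Zfp410, Zfp335 and Zfp148, had changes between −0.03 and 0.54 and did not pass. Zfp335, which is needed for T cell maturation, was high in all libraries, with 319 and 306 normalised tags in NASH libraries, against 382 and 343 in control libraries (limma adjusted p = 0.293). Of the windows over the CRE promoters, only that of Zfp426 was called lower. It lies at −14 bp, held ATF3 sites on both lists and a P300 site on the NASH list, and had 33.6 and 30.7 normalised tags in NASH libraries, against 75.0 and 64.1 in control libraries (−0.83, limma adjusted p = 0.0145). Over its 3 windows Zfp426 had a limma adjusted p of 0.00647, and of 0.127 without NASH library 2.

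**Figure D5:**
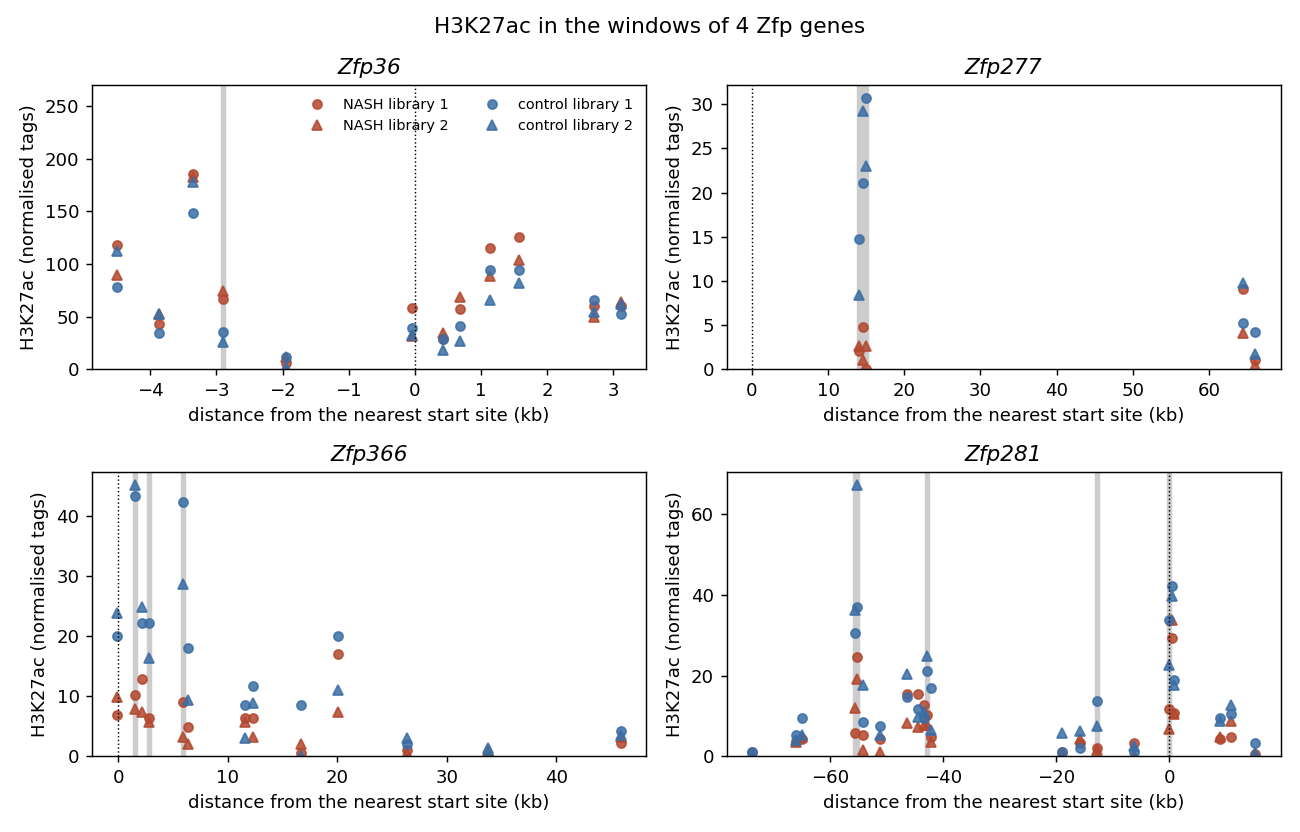
H3K27ac (normalised tags) in each window of Zfp36, Zfp277, Zfp366 and Zfp281 by distance from the nearest start site (kb), with 1 symbol per library. Grey lines mark called windows and the dotted line the start site; the called windows of Zfp277 lie at 14 to 15 kb and that of Zfp36 at −2906 bp.

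Of genes of chromatin complexes, 1 of 6 was lower and none higher, and none was called with TMM, beside the 11% of all tested genes called lower. This was Zfp217, a partner of co-repressors with the demethylase LSD1, with 252 and 195 normalised tags in NASH libraries, against 339 and 335 in control libraries (−0.32, SE 0.15, limma adjusted p = 0.00977). The call ended with TMM (0.208) and without NASH library 2 (0.173). A single window at −66756 bp (chr2:170209325-170209537) was far lower, with 1.60 and 0.52 normalised tags in NASH libraries, against 14.8 and 20.8 in control libraries (ratio of tags 0.0554, 95% exact interval 0.0146 to 0.149; limma adjusted p = 0.00218, and 0.0782 without control library 2). Zfp644, Zfp687, Zfp592, the cohesin loader partner Zfp609 and Zfp827 did not pass, with changes between −0.39 and 1.19. In the list of adipose and mesenchymal regulators, 1 of 5 was lower (none with TMM), also beside 11% of all tested genes. It was Zfp516, a partner of PRDM16 in brown fat. It had 357 and 283 normalised tags in NASH libraries, against 469 and 393 in control libraries, a change of −0.15 (limma adjusted p = 0.0451, and 0.605 with TMM). That call ended without NASH library 2 or control library 1. Zfp521, Zfp467, Zfp503 and Zfp703 did not pass (−0.67 to 1.38).

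Silencers of retroelements and imprinted genes did not pass the test. Zfp809, which silences endogenous retroviruses in mouse stem cells, had 82.7 and 57.7 normalised tags in NASH libraries, against 106 and 102 in control libraries (−0.29, limma adjusted p = 0.0877). Zfp445, an imprint protector, had 47.5 and 39.5 in NASH libraries, against 52.8 and 42.0 in control libraries (limma adjusted p = 0.804). Zfp568 lay at 0.12 and Zfp932 was not tested. Of the immune list, Zfp36 was higher, as given above. Zfp608, known to restrain Rag genes in mouse thymocytes, stood at 0.15 over its 37 windows (limma adjusted p = 0.533). Within it, a window at 18755 bp in an intron had 21.9 and 18.2 normalised tags in NASH libraries, against 1.06 and 5.31 in control libraries (2.80, SE 0.54, limma adjusted p = 0.00837, and 0.0662 without NASH library 1). The change was 1.92 without control library 1 and 3.68 without control library 2, and the ratio of tags was 4.94 (95% exact interval 2.72 to 9.70). Zfp318, needed for IgD on B cells, had 17.1 and 13.5 normalised tags in NASH libraries, against 54.9 and 20.8 in control libraries, and did not pass (−0.82, limma adjusted p = 0.0712). Its value rested on the control libraries, with −0.25 (0.610) without control library 1 and −1.39 (1.11e-04) without control library 2. Zfp30 was not tested. Zfp57, Zfp423 and Zfp91 of these lists were not analysed here.

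Among called genes outside the role lists, Zfp446 and Zfp619 were lower at windows inside the gene, while their promoter windows did not pass the test. Zfp446 had 76.8 and 66.6 normalised tags in NASH libraries, against 139 and 146 in control libraries (−0.70, SE 0.20, limma adjusted p = 0.00200), and held without any 1 library. Its exon window at 1697 bp (chr7:12979389-12979702) had 13.3 and 9.88 in NASH libraries, against 48.6 and 44.7 in control libraries (limma adjusted p = 0.00168), while its promoter window at −46 bp had 25.6 and 21.8, against 24.3 and 23.4. Zfp619 had 147 and 121 normalised tags in NASH libraries, against 233 and 222 in control libraries (limma adjusted p = 0.00382, and 0.0688 without NASH library 2). Its window at 937 bp (chr7:39518589-39518818) had 3.20 and 4.16 in NASH libraries, against 41.2 and 28.7 in control libraries (limma adjusted p = 5.66e-04). The promoter window at −75 bp had 37.9 and 30.2 in NASH libraries, against 38.0 and 37.1 in control libraries. Zfp773 had 13.3 and 10.4 normalised tags in NASH libraries, against 38.0 and 36.7 in control libraries (−1.30, limma adjusted p = 0.00454, and 0.0593 without NASH library 2). Zfp773 had no site of any factor in its 3 windows.

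Zfp784 (−1.12, limma adjusted p = 0.00692, and 0.0742 without control library 1) and Zfp770 (−0.45, 0.00663, called without any 1 library, and 0.0849 with TMM) completed the 10 lower genes with the smallest adjusted p. The other 19 had limma adjusted p-values from 0.0153 to 0.0473 and changes from −2.19 at Zfp2 to −0.15 at Zfp516. Zfp2 and Zfp42, a pluripotency marker also named Rex1, held few tags with the NASH diet, 2 and 0 at Zfp2 against 8 and 13 in control libraries, and 1 and 3 at Zfp42 against 9 and 16. The ratios were 0.0805 (95% exact interval 0.00915 to 0.329) and 0.135 (0.0342 to 0.391). Each of these 19 calls ended without at least 1 library, 18 of them without NASH library 2, 17 without control library 1, 11 without NASH library 1 and 2 without control library 2. With TMM 7 more genes were higher, Zfp692, Zfp691, Zfp655, Zfp330, Zfp948, Zfp704 and Zfp959. Zfp692 had 134 and 162 normalised tags in NASH libraries, against 100.3 and 100.8 in control libraries (0.83, limma adjusted p = 0.0535, and 0.00135 with TMM). These 7 were chosen after their values were seen.

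A single window was called where its adjusted p was under 0.05 and its log2 change, before subtraction, reached 1 in size. Relative log2 changes of windows are set against the median of all tested windows, −0.26. Of 583 tested windows of Zfp genes, 3 were higher (0.515%, against 2% of all tested windows) and 33 lower (5.66%, against 4.58%). With TMM 10 were higher and 15 lower. For TMM and for the fits without 1 library no share over all windows is given. These counts therefore do not show whether windows of Zfp genes vary more than others. The lower count was 13 without NASH library 2 and 19 without control library 1, and the higher count was 1 without either NASH library and 5 without either control library. None of the 3 higher windows lay within 1000 bp of a start site, where 14 of 358 were lower (3.91%, and 2.93% of all such windows). Farther away 19 of 225 were lower (8.44%, and 5.80% of all). The third higher window lay near Zfp800 at −57731 bp (chr6:28319232-28319432), with 13.3 and 9.36 normalised tags in NASH libraries, against 1.06 and 0.44 in control libraries (ratio of tags 18.2, 95% exact interval 4.73 to 155; limma adjusted p = 0.00787). That call ended without NASH library 1 (0.337) or NASH library 2 (0.25). At windows of Zfp genes with an ATF3 site on the NASH list only, 1 of 132 was higher and 6 were lower. Over all genes such windows were higher in 4.17% and lower in 2.18% of 8615.

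Partner genes of KRAB repression were set beside the Zfp genes. Of 32 in the table, 27 were tested, none was higher and 1 was lower (3.70%, against 11% of all tested genes), with a median change of −0.11. This was the histone deacetylase gene Hdac2, with 46.9 and 38.0 normalised tags in NASH libraries, against 100.3 and 61.9 in control libraries (limma adjusted p = 0.0304). The call ended with TMM (0.0666) and when control library 1 (0.301) or NASH library 2 (0.249) was left out. Trim28 had 60.8 and 38.5 normalised tags in NASH libraries, against 90.8 and 44.7 in control libraries (limma adjusted p = 0.414). Among other zinc finger names, to be read against 2.89% higher and 11% lower of all tested genes, Zbtb had 1 higher and 6 lower of 36 tested (median −0.02), Zc3h 2 higher and 0 lower of 13 (0.17), Klf 1 higher and 5 lower of 12 (−0.17), Zscan 0 of 7 (0.03) and Zkscan 0 of 8 (−0.24). Names of Zfp with a letter suffix had 0 higher and 1 lower of 19 (−0.02). These are 16.7% lower for Zbtb and 41.7% for Klf. No difference between these classes was tested.

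Some of the markers measured in the same libraries moved with the diet. Their counts are to be read against 2.89% higher and 11% lower of all tested genes, or 6.97% and 6.37% with TMM. Of 8 Kupffer cell genes, 4 were lower (Timd4, Marco, Adgre1 and Clec4f) and none higher. Vsig4, Cd5l, Csf1r and C1qa were not called (limma adjusted p = 0.264 to 0.898). Cd5l had 481.6 and 448.2 normalised tags in NASH libraries, against 489 and 496.6 in control libraries. The summed level of the 8 was 1082 and 995 normalised tags in NASH libraries, against 1715 and 1627 in control libraries. Timd4, which encodes Tim4, the protein of the sort, had 21.3 and 26.0 in NASH libraries, against 256.6 and 255.6 in control libraries. Of 3 monocyte genes none was called, but with TMM Ly6c2 and Cx3cr1 were higher (limma adjusted p = 0.00679 and 0.0396). Ccr2 went the other way, with 28.3 and 20.8 normalised tags in NASH libraries, against 37.0 and 33.6 in control libraries (limma adjusted p = 0.285). Ly6c2 had 297.6 and 332.8 in NASH libraries, against 242.9 and 251.6 in control libraries. The summed level of the 3 was 348 and 369.7, against 294 and 292, and most of it came from Ly6c2. Of 4 endothelial genes, Stab2 and Cdh5 were lower, Pecam1 was not called (limma adjusted p = 0.632) and Kdr was not tested. Kdr had 5.34 and 6.24 normalised tags in NASH libraries, against 4.22 and 3.98 in control libraries. The T cell gene Cd3d, with 1 window, was higher (limma adjusted p = 0.00947), while Cd3e and Cd3g had no window. Of 3 hepatocyte genes none was called, but Apoa1 was higher with TMM (limma adjusted p = 0.0147). Ttr was not called in either scaling, and Alb was not tested. Neutrophil and B cell genes were not tested, and no tested stellate or cholangiocyte gene was called. In such sorted samples fewer cells of a type and less signal per cell cannot be told apart, and the part of these markers in the results on Zfp genes was not tested. The libraries held 18749728 and 19231109 tags with the NASH diet, against 9468035 and 22615879 with the control diet, of which 1.47% and 1.38%, against 1.64% and 1.54%, of those in windows fell on Zfp genes. With 0 tags counted, up to 3 are allowed, which were 1.60 and 1.56 normalised tags in NASH libraries and 3.17 and 1.33 in control libraries. Members of a cluster can be near-identical in sequence, and the sources used here do not say how tags that match several copies were handled, so levels within clusters are uncertain.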

How the data were processed

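The members and the gene lists were chosen with earlier results of these data known. The H3K27ac signal was deposited as tags per window on mm10, scaled to 10000000 tags per library by HOMER, and windows were assigned to genes, per the file headers. Windows were merged reproducible ATAC-seq peaks of control and 20-week diet lists, per the file headers. Site lists joined 2 libraries by IDR, with 0.05 as the threshold of the LXR and P300 lists, per the file headers; no source used here gives the ATF3 threshold. The headers of the NASH lists of LXR and P300 carry the name NASH with the number 30, whose unit they do not state, while the windows name 20 weeks of diet, so the diet times may differ, and no source used here gives that of the ATF3 and H3K27ac libraries. IDR and enrichment scores are the authors' deposited values. Bowtie2, HOMER and DESeq2 are named in the submitters' processing notes. The 10 input libraries and the peritoneal macrophage library were not used here, nor were protein sequences.

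Values were summed per gene and tested by limma 3.58.1 (limma-trend, log2(value + 1), 2 against 2 libraries, Benjamini-Hochberg over 11593 genes or 35947 windows), after edgeR's filterByExpr on whole tags recovered from each value (100% within 0.02). The deposited values are normalised signal, so edgeR 4.0.16 and DESeq2 1.42.0 on recovered tags were alternatives. The fold change on that log2 scale understates changes of low values. The script was tested on simulated data. Sites overlapped windows or promoters by at least 1 bp. Replicates differed beyond sampling noise (chi-square per degree of freedom 2.31 for NASH, 3.20 for control), and their numbers did not pair (correlation of deviations 0.0323). Intervals and floors cover counting error only. Named genes were called genes (up to 10 per direction by adjusted p), the 5 highest, 6 by factor sites, and role lists; named windows were up to 6 per direction.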

Additional observations from a re-analysis of the deposited data

How the results depend on the processing

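The median change of tested Zfp genes (−0.084) lay between −0.043 and −0.128 under every alternative run. The 2 genes called higher became 9 with TMM, 10 with edgeR, 4 with DESeq2, 1 with a pseudocount of 0.5 and 0 without a filter on low values, in windows within 1000 bp of the start site or in promoter windows. The 29 lower genes became 17 with TMM, 17 with edgeR, 3 with DESeq2, 18 without the filter, 7 within 1000 bp and 3 in promoter windows. Leaving out a library gave 0 to 2 higher and 7 to 45 lower genes. The 3 higher windows became 10 with TMM, 11 with edgeR, 5 with a pseudocount of 3 and 0 without the filter (1 to 5 without a library), and the 33 lower windows 15 with TMM, 18 with edgeR, 6 with DESeq2 and 7 without the filter (13 to 49 without a library). The 1 lower KRAB partner gene became 0 with TMM, edgeR, DESeq2, no filter, or windows within 1000 bp or at promoters, and 0 to 4 without a library. The replicate numbers do not pair the libraries; with the replicate block 4 genes were higher and 49 lower, 7 windows were higher and 56 lower, and 2 partners were lower. Of sites with an IDR score of 830 or more, ATF3 control sites were left at 67 Zfp genes in place of 101. Near the start site the direction turned at Zfp446 (0.223 within 1000 bp, 0.282 in promoter windows), Zfp619 (0.146 in promoter windows) and Zfp532 (0.20 in promoter windows), none of them called there. The cause of these differences was not tested. No shares over all genes or windows stand beside the counts of this section. They therefore do not show whether Zfp genes vary more than others. Of 849 values of single genes and windows under alternatives, 655 kept direction and side of the threshold. With 2 libraries per diet and 1 control library of lower depth, values of a few tags carry wide counting intervals.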
